A study of Mus musculus with 30 samples.

Results

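The NLRP3 inflammasome and the IL-1 cytokines it releases were followed through 9 genes, *Nlrp3*, *Pycard*, *Casp1*, *Casp4*, *Gsdmd*, *Il1a*, *Il1b*, *Il18* and *Il1rn*. They were chosen by name as the inflammasome and IL-1 ligand genes that act downstream of the ATP receptor P2X7. All 9 were found by Ensembl identifier among the 43629 genes counted, and all 9 passed the filter on low counts. RNA came from bone marrow–derived dendritic cells (BMDCs), which are cells grown from mouse bone marrow with the growth factor GM-CSF, here for 6 days. The wild-type (WT) mice were C57BL/6J and the *Cacnb3*-/- mice, which are deficient in the calcium channel subunit CACNB3, were C57BL/6N. Genotype and substrain therefore cannot be told apart in any comparison between them. Adult mice of both sexes were used. Each genotype had 5 numbered cultures, and each culture gave 3 libraries, which form the sets ctrl, 0p5h and 24h after the last part of their names. In the study the cells received a pulse of 500 µM ATP for 30 min, with RNA taken 30 min or 24 h after ATP, and the ctrl libraries are its untreated set by name. The treatment field of the sample labels disagrees with the names, since it reads ATP for the ctrl libraries and vehicle for the 0p5h libraries, while both place the 24h libraries after ATP. The sets below are those of the names. Each culture had a single ctrl library and no untreated library for each time. ATP and time in culture therefore cannot be told apart in any comparison of sets. The labels do not say that a number marks a separate animal, so p-values measure only the spread between these cultures.

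Extracellular ATP opens P2X7, potassium leaves the cell, and NLRP3 then assembles with the adaptor ASC (encoded by *Pycard*) and caspase-1. Caspase-1 cuts the precursors of IL-1β and IL-18 into their active forms and cuts gasdermin D, whose fragment forms the pores through which these cytokines leave. Before this, a priming signal through Toll-like receptors and NF-κB raises the transcripts of *Nlrp3* and *Il1b*, and dendritic cells use the released IL-1β to instruct T cells. Transcript counts show none of the protein steps.

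Total counts ranged from 8237393 to 32164225 per library with a median of 19556920. Levels are given as reads per 1000000 of a library's effective size (CPM). This size is the library's reads on genes kept by the low-count filter, scaled by a normalization factor (TMM). The immediate early gene *Fos*, a check of which libraries followed a recent stimulus, stood at 130.5 to 211 CPM in the WT 0p5h libraries and at 147 to 300.4 CPM in the *Cacnb3*-/- ones, above all ctrl libraries, which lay between 6.54 and 45.6 CPM. Reads on *Cacnb3* were still counted in the libraries labelled *Cacnb3*-/-, at a mean of 1028 CPM in ctrl against 1260.2 CPM in WT, so the count over the whole gene did not check the genotype. Dendritic cell markers (9 genes, among them *Itgax*, *H2-Ab1* and *Cd74*) summed to 19903 to 44398 CPM over all libraries. Macrophage markers summed to 655 to 2476 CPM and neutrophil and granulocyte precursor markers to 174 to 797 CPM, and these cells also express several of the 9 genes. Marker sums of mast cells and basophils, B cells, T and NK cells and erythroid cells did not exceed 7.29, 5.05, 1.08 and 0.399 CPM.

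The promoters of the members called between sets, *Nlrp3*, *Il1b* and *Il1rn*, and of *Casp4* are shown because priming is read from such sequences by NF-κB and AP-1. Each line holds the 250 bases before a RefSeq transcription start (GRCm38.p6), 5′ to 3′ on the strand of the gene, with motif matches in capitals.
Nlrp3: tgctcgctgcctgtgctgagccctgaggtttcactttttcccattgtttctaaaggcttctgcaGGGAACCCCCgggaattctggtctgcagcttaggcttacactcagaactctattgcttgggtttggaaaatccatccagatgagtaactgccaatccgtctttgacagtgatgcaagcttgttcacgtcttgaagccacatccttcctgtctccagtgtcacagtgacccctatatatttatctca
Il1b: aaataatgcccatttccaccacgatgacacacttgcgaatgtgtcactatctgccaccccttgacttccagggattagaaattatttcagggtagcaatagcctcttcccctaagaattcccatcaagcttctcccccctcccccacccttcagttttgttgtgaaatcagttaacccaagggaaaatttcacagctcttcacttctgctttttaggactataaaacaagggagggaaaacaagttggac
Il1rn: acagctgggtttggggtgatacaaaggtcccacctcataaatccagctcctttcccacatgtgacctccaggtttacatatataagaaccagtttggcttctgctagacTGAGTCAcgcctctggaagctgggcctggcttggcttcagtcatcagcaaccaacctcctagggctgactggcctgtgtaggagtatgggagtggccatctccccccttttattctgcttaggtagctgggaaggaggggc
Casp4: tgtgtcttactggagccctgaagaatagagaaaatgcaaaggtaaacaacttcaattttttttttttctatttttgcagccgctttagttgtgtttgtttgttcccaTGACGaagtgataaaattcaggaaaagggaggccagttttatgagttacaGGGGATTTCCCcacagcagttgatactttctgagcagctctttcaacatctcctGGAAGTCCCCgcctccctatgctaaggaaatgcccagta
These windows lie at chr11:59541319-59541568 (plus strand), chr2:129371140-129371389 (minus strand), chr2:24336610-24336859 (plus strand) and chr9:5308599-5308848 (plus strand). Of the 9 genes, 8 had a promoter in the RefSeq table, in 12 windows of 300 bases (250 before and 50 after the start), and *Gsdmd* had no entry. Searched on both strands were 5 motifs, the CRE (TGACGTCA), its core (CGTCA, contained in the CRE), the AP-1 site (TGANTCA), the PU.1 core (GAGGAAGT) and the kB consensus. *Nlrp3* held a kB match at position -186 from the start shown, and the window of its other start (chr11:59542436-59542735) held a CRE core at +15. *Casp4* held kB matches at -93, -92 and -39 and a CRE core at -143, and the window of its other start, which overlaps this one, held the same matches. *Il1rn* held an AP-1 match at -141 from the start shown. The windows of its other starts (chr2:24345041-24345340 and chr2:24345121-24345420) held no match to any of the 5 motifs. *Il1a* held an AP-1 match at -12, while *Pycard* held a PU.1 core at -44. None of the letters searched was found in the window of *Il1b*. Bases outside the windows and other forms of these sites were not searched for any gene. Of 32851 promoters of the same length, 8.46% held the kB consensus, 7.81% the AP-1 site, 20.8% the CRE core, 3.2% the PU.1 core and 1.79% the CRE.

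Per length of the counted exons, *Il1b* had the highest median of the 9 genes over all sets and *Il1a* the lowest. In *Cacnb3*-/- ctrl the mean of *Gsdmd* (91.1 CPM per 1000 bases) was above that of *Il1b* (81.1), while *Il1b* had the higher mean in the other groups. The median over 30 libraries was 162 CPM per 1000 bases for *Il1b*, 105 for *Gsdmd*, 50.3 for *Pycard*, 46.6 for *Il1rn*, 27.9 for *Casp1*, 8.10 for *Il18*, 7.95 for *Nlrp3*, 7.86 for *Casp4* and 4.08 for *Il1a*. Among neighbours in this order, only *Casp1* (16.6 to 47.1) and *Il18* (5.11 to 16) had ranges that did not overlap over the 30 libraries. The highest library exceeded the lowest 45.9-fold for *Il1b*, 17.6-fold for *Nlrp3*, 15.3-fold for *Il1a* and 6.18-fold for *Il1rn*. In contrast, the range was 1.91-fold for *Gsdmd*, 1.83-fold for *Pycard* and 2.83-fold for *Casp1*. The exons counted for *Il18* begin downstream of its RefSeq start, so its level covers those exons only, and with 49 to 158 reads per library it was, like *Il1a* (30 to 739 reads), the least precisely counted.

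**Figure D1:**
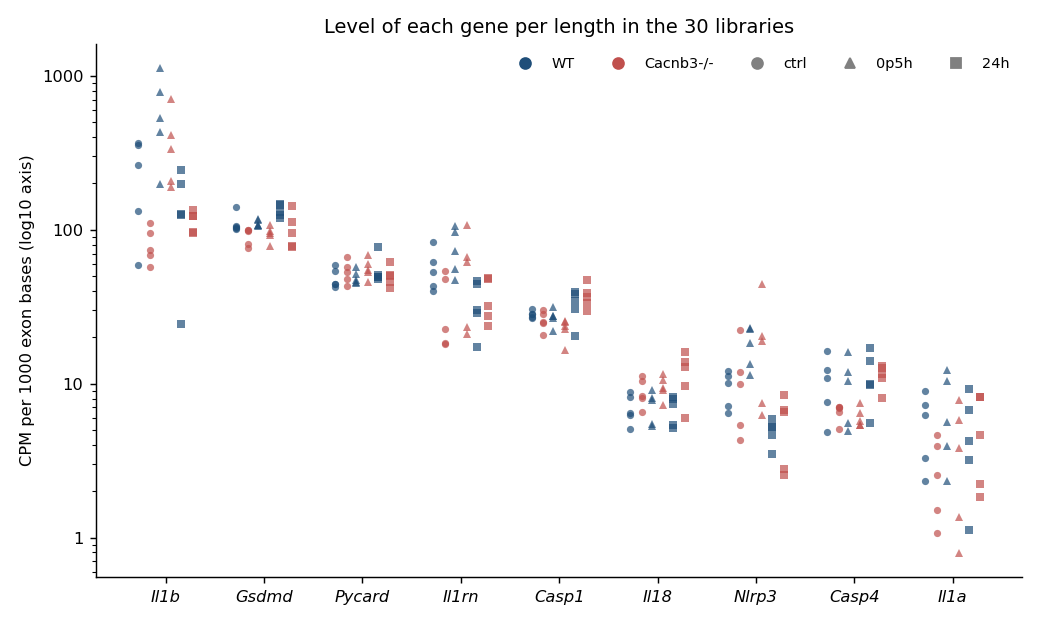
Level of each of the 9 genes in every library, in CPM per 1000 counted exon bases on a log10 axis, with color for genotype and shape for set. *Il1b* and *Nlrp3* spread over more than the others, while *Gsdmd* and *Pycard* stay within 1.91-fold and 1.83-fold.

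*Nlrp3*, on chromosome 11 (GRCm38 chr11:59541568-59566956, plus strand), encodes the sensor of the inflammasome. In WT cultures p974s846, p974s850, p974s855, p974s856 and p974s864, in this order throughout, it was counted at 29, 45.6, 26.2, 41.1 and 48.8 CPM in ctrl. The 0p5h libraries gave 54.2, 93.2, 46.3, 92.5 and 74.9 CPM, and the 24h libraries 18.9, 21.3, 21.3, 23.7 and 14.2 CPM. Every WT culture was higher at 0p5h than in ctrl and lower at 24h than in ctrl, and the 24h values overlapped with neither other set. Of all genes 1.94% (24h and ctrl) and 3.69% (24h and 0p5h) were as separate in either direction. From 0p5h to 24h *Nlrp3* fell by 1.86 on the log2 scale (SE 0.21, n = 5 cultures, edgeR quasi-likelihood test, Benjamini-Hochberg adjusted p = 0.00162), which is 0.276-fold. The call held without any single culture, with an adjusted p (edgeR) between 0.00348 and 0.0192. In bulk RNA, a change in the number of cells that express a gene and a change per cell cannot be told apart, here and for all 9 genes. It was the only one of the 9 genes called in this comparison (adjusted p under 0.05 and at least 2-fold), where 0.639% of all 12830 genes tested were called. DESeq2 called *Il1b* and *Il1rn* as well, 3 of the 9, against 0.57% of all genes with a p from it. From ctrl to 0p5h the log2 difference was 0.93 (SE 0.24, edgeR adjusted p = 0.304), and with a replicate block for the culture it was 0.92 (SE 0.07, adjusted p = 2.98e-05, 1.53- to 2.25-fold in the cultures), still under 2-fold.

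Among the *Cacnb3*-/- cultures, given throughout in the order p974s843, p974s851, p974s852, p974s853, p974s865, *Nlrp3* stood at 40.2, 48.1, 17.4, 22 and 90.4 CPM in ctrl. It stood at 77.3, 82.8, 25.5, 30.2 and 181 CPM in 0p5h and at 26.6, 27.4, 10.3, 11.4 and 34.3 CPM in 24h. The pattern was the same in each culture, higher at 0p5h and lowest at 24h, but the cultures themselves differed, with p974s865 highest and p974s852 lowest in each set, so that the sets overlapped. Against 0p5h, the 24h level differed by -1.83 (SE 0.52, adjusted p = 0.136) without the block. With the block it fell by 1.67 (SE 0.15, edgeR adjusted p = 4.39e-05). In the same fit 2.88% of genes were called. At 0p5h against ctrl the blocked difference was 0.75 (SE 0.09, edgeR adjusted p = 0.00203), under 2-fold.

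*Pycard* (chr7:127992103-127993867, minus strand), the adaptor that joins the sensor to caspase-1, differed little between sets. In WT its mean was 68.8 ± 10.4 CPM in ctrl, 69.3 ± 7.12 in 0p5h and 77.3 ± 17.4 in 24h (SD, n = 5), and in *Cacnb3*-/- it was 75.4 ± 12.5, 79.5 ± 11.8 and 70.2 ± 10.4. Its log2 differences between sets lay between -0.17 and 0.17, and no comparison reached an unadjusted p under 0.05. The 24h mean in WT includes 108 CPM in culture p974s856, where the other 4 libraries lay between 67.5 and 71.8.

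*Casp4* (chr9:5308828-5336783, plus strand), which encodes the mouse caspase that senses lipopolysaccharide inside the cell, was higher at 24h than in either other set in all 5 *Cacnb3*-/- cultures. There it was counted at 25.6, 24.3, 26.2, 26.3 and 18.8 CPM in ctrl, at 27.9, 21.4, 23.8, 19.9 and 19.9 in 0p5h and at 48.3, 47.1, 40.3, 42.7 and 30.1 in 24h. All 5 of its 24h libraries were above all of the ctrl and 0p5h libraries, and 1.21% (24h and ctrl) and 3.21% (24h and 0p5h) of all genes were as separate in either direction. Against 0p5h the log2 difference was 0.90 (SE 0.16, edgeR adjusted p = 0.0218), which is 1.86-fold and so not called. With each library's trend with the GC content of genes removed it was 0.47 (SE 0.13, edgeR adjusted p = 0.134). GC content was taken from the longest annotated transcript of a gene (GENCODE M39), and that of *Casp4* was the lowest of the 9, 37.5%. In WT *Casp4* differed more between cultures than between sets, at 45.8, 28.3, 60.2, 40.3 and 18 CPM in ctrl, 38.5, 20.7, 59.7, 43.9 and 18.3 in 0p5h and 51.9, 37.1, 63.3, 36.5 and 20.6 in 24h. Culture p974s855 was highest and p974s864 lowest in each WT set.

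*Casp1* (chr9:5298517-5307265, plus strand), the protease of the inflammasome, lies 1562 bases before *Casp4* and has the next lowest GC content, 38.2%. The *Cacnb3*-/- cultures gave 37.2, 42.3, 45.3, 31 and 37.5 CPM in ctrl, 33.8, 38.0, 37.6, 24.9 and 35.5 in 0p5h and 50.0, 70.5, 58.4, 44.2 and 54.9 in 24h. Every culture was lower at 0p5h than in ctrl and highest at 24h, and 0p5h and 24h did not overlap, which held for 3.21% of all genes. The log2 difference between them was 0.72 (SE 0.15, edgeR adjusted p = 0.0537), with the replicate block 0.72 (SE 0.09, adjusted p = 0.000331), and with the GC trend removed 0.36 (SE 0.18, adjusted p = 0.404). None of these is a 2-fold difference. In WT the means were 42.4 ± 2.37, 40.5 ± 5.19 and 48.8 ± 11.4 CPM (SD, n = 5), and 24h exceeded 0p5h in 4 of 5 cultures, with p974s856 the exception (40.1 to 30.7 CPM).

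*Gsdmd* (chr15:75862339-75867404, plus strand), which encodes the pore-forming gasdermin D, held its level within narrow limits in WT. It stood at 197 ± 30.5 CPM in ctrl, 197 ± 9.70 in 0p5h and 236 ± 21.5 in 24h. The 5 WT cultures were each higher at 24h than at 0p5h (1.05- to 1.34-fold), as were 12.8% of all genes, and the sets did not overlap, as for 3.69% of genes, but the log2 difference of 0.26 (SE 0.09) did not pass (edgeR adjusted p = 0.305). The means in *Cacnb3*-/- were 162 ± 20.2, 168 ± 19.4 and 179 ± 47.9 CPM, with 3 of 5 cultures higher at 24h than at 0p5h.

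*Il1b* (chr2:129364570-129371139, minus strand), the precursor of IL-1β, was higher in the 0p5h libraries than in ctrl in all 10 cultures. The *Cacnb3*-/- libraries gave 140.0, 181, 109, 131 and 212 CPM in ctrl, 785, 635, 363, 397 and 1347 CPM in 0p5h, and 236, 256, 182, 233 and 185 CPM in 24h. The 0p5h libraries overlapped with neither other set, and 1.25% of genes were as separate between 0p5h and ctrl and 3.21% between 24h and 0p5h. *Il1b* rose 4.51-fold (log2 2.17, SE 0.34, n = 5, edgeR adjusted p = 0.0176) as the only one of the 9 genes called, against 0.29% of all genes (DESeq2 called the same gene alone of the 9, against 0.223%). From 0p5h to 24h it fell by 1.68 on the log2 scale (SE 0.32, edgeR adjusted p = 0.0353), again as the only one of the 9, against 0.66% of all genes (by DESeq2 as well, against 0.805%). Both calls depended on single cultures. The rise was lost without p974s843, p974s851 or p974s853 (edgeR adjusted p 0.0132 to 0.169 over the 5 cultures left out, log2 1.95 to 2.28), and the fall without p974s843, p974s851, p974s853 or p974s865 (0.0456 to 0.185, log2 -1.85 to -1.26). With the replicate block the rise was 2.05 (SE 0.16, edgeR adjusted p = 0.000112) and the fall 1.51 (SE 0.24, adjusted p = 0.00165), and both were called whichever culture was left out.

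In WT, *Il1b* in ctrl was above every *Cacnb3*-/- ctrl library in 4 of 5 cultures and spread more, at 502, 251, 673, 695 and 113 CPM in ctrl, 1018, 818, 1494, 2140.2 and 379 in 0p5h and 239, 243, 465, 377 and 46.6 in 24h. Culture p974s864 was lowest in every set. Each culture was higher at 0p5h than in ctrl (2.03- to 3.35-fold), and each was lower at 24h than in ctrl. The log2 difference of 1.40 at 0p5h (SE 0.53, edgeR adjusted p = 0.820) was not called without the block, where 0.176% of genes and none of the 9 were called. At an unadjusted p under 0.05 there were 2 of the 9, *Nlrp3* and *Il1b*, against 4.54% of all genes, and DESeq2 called 0, against 0.202% of all genes. With the block *Il1b* rose by 1.46 (SE 0.10, edgeR adjusted p = 1.77e-05), the only one of the 9 called, against 0.581% of all genes. From 0p5h to 24h the difference was -2.09 (SE 0.56, adjusted p = 0.127, called only without p974s864, where edgeR gave an adjusted p of 0.0202), and with the block *Il1b* fell by 2.20 (SE 0.18, edgeR adjusted p = 0.000221). The table counts 45 exon bases of *Il1b* that overlap *Il1bos* on the other strand, and strand was not used in the counting.

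**Figure D2:**
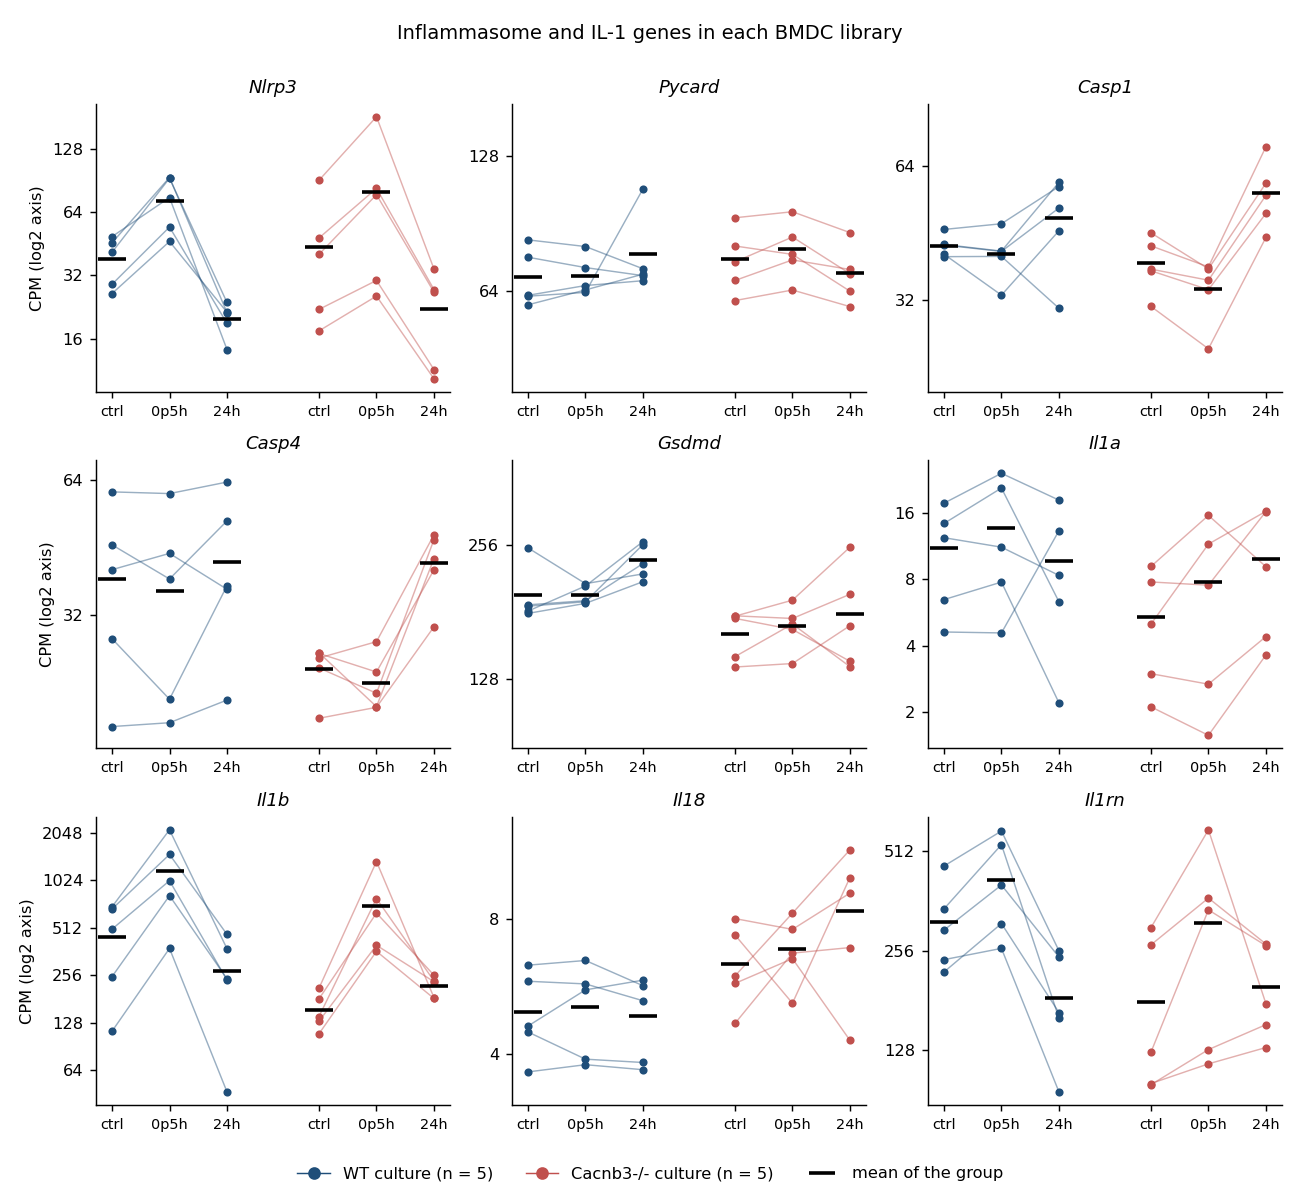
Level of the 9 genes in CPM (log2 axis) in each library, with lines joining the libraries of a culture, WT in blue, *Cacnb3*-/- in red and a black bar for the mean of 5. *Nlrp3* and *Il1b* peak at 0p5h in every culture of both genotypes, and *Casp1* and *Casp4* are higher at 24h in the 5 *Cacnb3*-/- cultures.

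*Il1rn* (chr2:24336853-24351494, plus strand) encodes the IL-1 receptor antagonist, which binds the receptor without signalling. In WT it was counted at 295, 221, 461, 342 and 240.4 CPM in ctrl, at 404, 309, 588, 535 and 260.0 in 0p5h and at 245, 166, 256, 160.1 and 95.9 in 24h. Like *Il1b*, it was highest at 0p5h and lowest at 24h in each WT culture. Of all genes 9.67% were higher at 0p5h than in ctrl in 5 of 5 WT cultures. At 24h 14.5% were lower than at 0p5h and 11.6% lower than in ctrl in 5 of 5. The 0p5h and 24h libraries of *Il1rn* did not overlap, as for 3.69% of all genes. The log2 difference between them was -1.18 (SE 0.29, edgeR adjusted p = 0.0860), and with the block *Il1rn* fell by 1.19 (SE 0.14, adjusted p = 0.00112). With *Nlrp3* and *Il1b* it made 3 of the 9 genes called in that fit, against 1.78% of all genes. The *Cacnb3*-/- values were 126.3, 266, 102, 101 and 300.2 CPM in ctrl, 339.7, 369, 117, 129 and 592 in 0p5h and 265, 268, 131, 153 and 177 in 24h. There it was higher at 0p5h than in ctrl in 5 of 5 cultures (1.15- to 2.69-fold) but lower at 24h than at 0p5h in only 3 of 5, and neither change was called with or without the block.

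*Il1a* and *Il18* were the cytokines of low level. *Il1a* (chr2:129299610-129309972, minus strand, 54597 bases from *Il1b*), whose product IL-1α binds the same receptor and is active without caspase-1, averaged 11.1 ± 5.43, 13.7 ± 8.39 and 9.67 ± 6.22 CPM in WT and 5.40 ± 3.01, 7.77 ± 5.89 and 9.91 ± 6.12 CPM in *Cacnb3*-/- (ctrl, 0p5h and 24h, SD, n = 5). Cultures varied more than sets, from 1.57 to 24.1 CPM at 0p5h, and no comparison of sets reached an unadjusted p under 0.05. Of its exon bases 222 overlap *Gm14023* on the other strand. *Il18* (chr9:50575273-50581837, plus strand), the other cytokine cut by caspase-1, stood at 4.97 ± 1.08, 5.09 ± 1.19 and 4.86 ± 1.03 CPM in WT and at 6.36 ± 1.34, 6.86 ± 1.16 and 8.34 ± 2.79 CPM in *Cacnb3*-/-. Its log2 differences between sets lay between -0.06 and 0.38 and did not reach an unadjusted p under 0.05.

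The change within cultures summarises these patterns. *Il1b*, *Nlrp3* and *Il1rn* were higher at 0p5h than in ctrl in all 5 cultures of each genotype, as were 9.67% of all genes in WT and 9.76% in *Cacnb3*-/-. From 0p5h to 24h *Nlrp3* and *Il1b* were lower in all 5 cultures of each genotype, as were 14.5% and 19.1% of all genes. *Casp1* was lower at 0p5h than in ctrl in all 5 *Cacnb3*-/- cultures, as were 7.36% of all genes, and *Casp1* and *Casp4* were higher at 24h than at 0p5h in all 5, as were 16.8%. The comparisons of 0p5h with ctrl and of 24h with 0p5h share the 0p5h libraries. The median log2 difference over the 9 genes was 0.04 (0.01 over all genes) for 0p5h against ctrl and -0.06 (0.01) for 24h against 0p5h in WT, and 0.10 (-0.01) and 0.10 (0.00) in *Cacnb3*-/-. The dendritic cell marker sum was also higher at 0p5h than in ctrl in 5 of 5 *Cacnb3*-/- cultures (median log2 0.23) and lower at 24h than at 0p5h in 5 of 5 (median -0.48), and in WT lower in 5 of 5 (median -0.01). Macrophage markers were higher at 0p5h in 3 of 5 cultures of each genotype and neutrophil markers in 3 of 5 of each. At 24h against 0p5h the neutrophil sum was higher in 4 of 5 WT (median log2 0.54) and 4 of 5 *Cacnb3*-/- cultures (median 0.29), and macrophage markers were lower in 3 of 5 WT (median -0.09) and 4 of 5 *Cacnb3*-/- cultures (median -0.27). The part of these markers in the results was not tested.

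**Figure D3:**
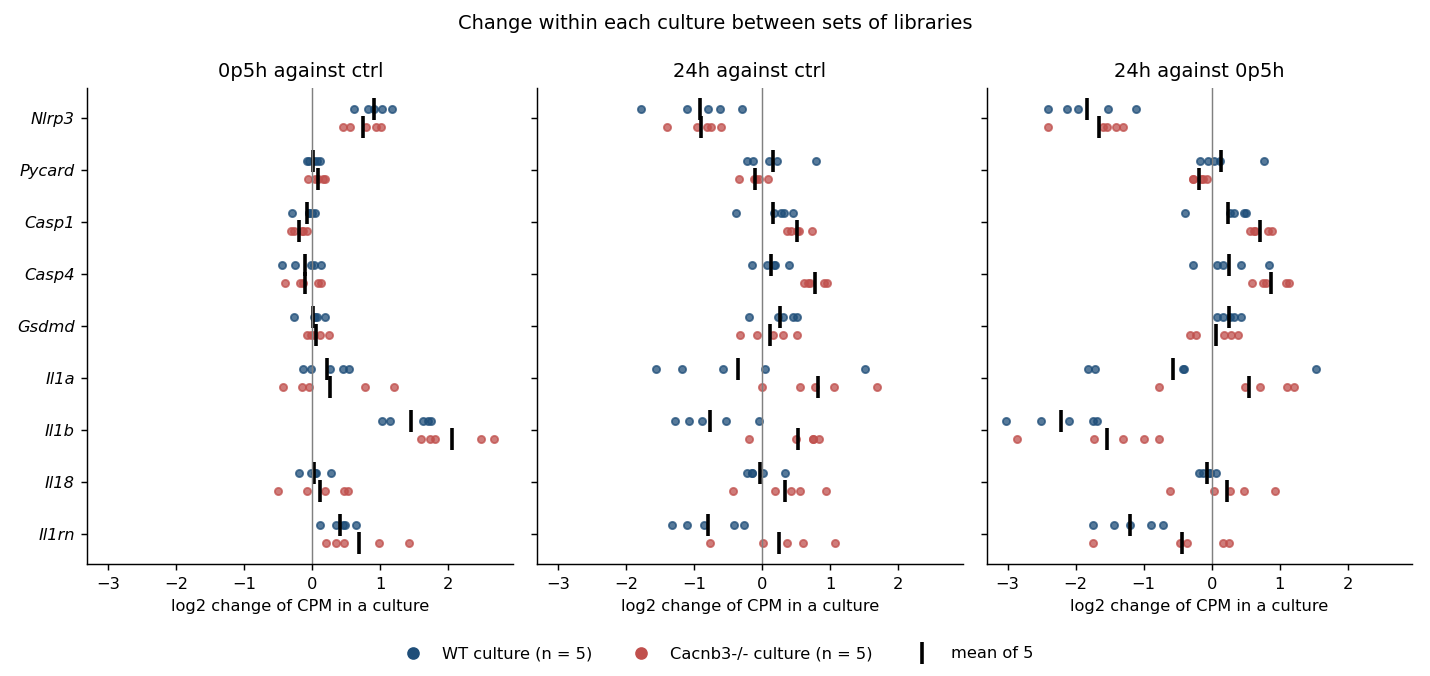
Change of CPM within each culture (log2) for the 9 genes between sets, with a point per culture, WT in blue and *Cacnb3*-/- in red, and a black bar for the mean of 5. At 0p5h against ctrl the 10 cultures lie between 1.02 and 2.67 for *Il1b*, and *Pycard* and *Gsdmd* stay near 0.

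At 24h against ctrl the level of *Nlrp3* was lower in all 10 cultures, which held for 11.6% of all genes over the 5 WT cultures and for 14.6% over the 5 *Cacnb3*-/- ones. The WT sets did not overlap, as for 1.94% of genes, and no member was higher in all 5 WT cultures (9.12% of genes were). In WT the log2 difference was -0.94 (SE 0.20, edgeR adjusted p = 0.191), and with the block -0.90 (SE 0.18, adjusted p = 0.0210). *Il1b* and *Il1rn* were also lower than ctrl in 5 of 5 WT cultures, with blocked differences of -0.75 (SE 0.16, edgeR adjusted p = 0.0263) and -0.78 (SE 0.15, adjusted p = 0.0177). All 3 remained under 2-fold, so that none of the 9 genes was called at 24h against ctrl in WT, against 0.0152% of all genes by edgeR and 0.926% with the block. In WT 2 of the 9 and in *Cacnb3*-/- 4 of the 9 reached an unadjusted p under 0.05, against 8.39% and 10.8% of all genes, and DESeq2 called none of the 9 in either, against 0.117% and 0.191% of all genes. In the latter 0.0% of genes were called by edgeR. There *Nlrp3* differed by -0.99 (SE 0.45, edgeR adjusted p = 0.444), *Casp4* by 0.78 (SE 0.15, adjusted p = 0.162), *Casp1* by 0.52 (SE 0.15, adjusted p = 0.444) and *Il1b* by 0.50 (SE 0.19, adjusted p = 0.444). These *Cacnb3*-/- values are without the block, unlike the blocked WT ones, because ctrl and 24h of p974s843 correlated at only 0.0746. Blocked *Cacnb3*-/- values are given below, where the dependence on processing is described. With the GC trend removed *Casp4* differed by 0.41 and *Casp1* by 0.21. The dendritic cell and macrophage marker sums were also lower at 24h than in ctrl in 5 of 5 *Cacnb3*-/- cultures (median log2 -0.19 and -0.28), and their part in these differences was not tested. *Il1b* at 24h was thus below ctrl in 5 of 5 WT cultures and above ctrl in 4 of 5 *Cacnb3*-/- cultures, with p974s865 the exception.

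The balance of the IL-1 ligands was read as ratios within a library, which do not depend on library size. Both ratios have *Il1b* as denominator, so they are independent neither of its change described above nor of each other. The *Il1rn* to *Il1b* ratio of reads per base had a geometric mean of 0.282 in WT ctrl, 0.137 in WT 0p5h and 0.277 in WT 24h, and of 0.366, 0.141 and 0.303 in *Cacnb3*-/-. It was lower at 0p5h than in ctrl and higher at 24h than at 0p5h in all 10 cultures. The ratio in *Cacnb3*-/- fell to 0.386 of its ctrl level and then rose 2.15-fold (exact permutation test, two-sided, p = 0.00794 each, the smallest that 5 against 5 libraries can give, Benjamini-Hochberg adjusted p = 0.0357 over 18 tests). In WT the steps of 0.487-fold and 2.02-fold did not pass (exact permutation test, adjusted p = 0.0816 and 0.125). The *Il1a* to *Il1b* ratio fell to 0.426 of its ctrl level and rose 3.13-fold in WT (exact permutation test, adjusted p = 0.0476 each), and in *Cacnb3*-/- it fell to 0.289 of that level and rose 4.24-fold (exact permutation test, adjusted p = 0.0357 each). At 24h neither ratio differed from ctrl (exact permutation test, adjusted p 0.571 to 0.960), and no ratio differed between genotypes in any set (exact permutation test, adjusted p 0.623 to 0.960). With a test that pairs the libraries of a culture no ratio can pass, since the smallest p of an exact sign-flip test over 5 cultures is 0.0625, which each of these steps reached.

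**Figure D4:**
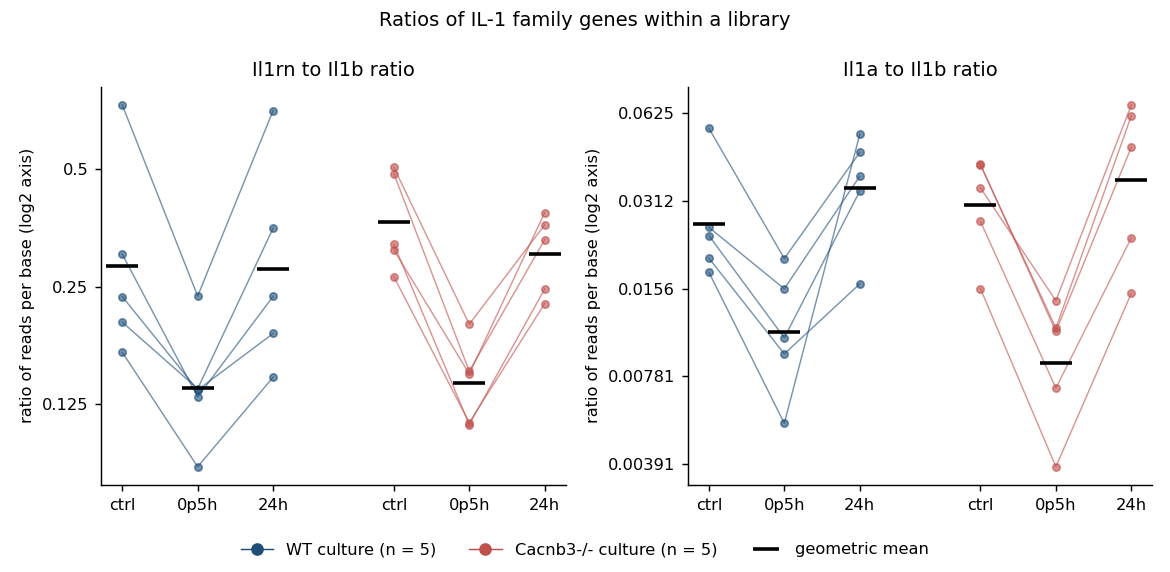
Ratio of reads per base of *Il1rn* to *Il1b* and of *Il1a* to *Il1b* in each library (log2 axis), with lines joining the libraries of a culture and a black bar for the geometric mean of 5. Both ratios are lowest at 0p5h in every culture of both genotypes.

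Between genotypes none of the 9 genes was called in any set by edgeR, and 0.0% of all genes were. DESeq2 called 1 of the 9 in ctrl, 0 in 0p5h and 0 in 24h, against 0.584%, 0.326% and 2.35% of all genes. At an unadjusted p under 0.05 (edgeR) there were 4, 2 and 2 of the 9, against 16.6%, 16.4% and 38.4% of all genes. *Gsdmd* in ctrl was the only member whose genotypes did not overlap, at 136 to 177 CPM in *Cacnb3*-/- and 179.6 to 252 CPM in WT (log2 -0.27, SE 0.13, edgeR adjusted p = 0.330). Of all genes 1.93% (ctrl), 2.05% (0p5h) and 6.51% (24h) did not overlap. In ctrl, *Il1b* was 0.352-fold the WT level in *Cacnb3*-/- (log2 -1.51, SE 0.41, 95% interval -2.41 to -0.60, edgeR adjusted p = 0.243, DESeq2 adjusted p = 0.0193). The genotypes overlapped through WT culture p974s864, whose 113 CPM was below 4 of the *Cacnb3*-/- libraries, and without that culture edgeR called *Il1b* (log2 -1.75, adjusted p = 0.0154), along with 1.88% of all genes where it had called 0 with all 10 libraries. *Il1a* (-1.0, SE 0.44), *Il1rn* (-0.78, SE 0.33) and *Casp4* (-0.64, SE 0.26) were lower in *Cacnb3*-/- ctrl libraries with unadjusted p under 0.05, and did not pass (edgeR adjusted p 0.274 to 0.284). With the sequencing lane as a covariate *Il1b* in ctrl differed by -1.61 (SE 0.42, edgeR adjusted p = 0.229). The dendritic cell marker sum was 20771 to 33346 CPM in *Cacnb3*-/- ctrl libraries and 29898 to 44398 CPM in WT ones, and its part in these differences was not tested.

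At 0p5h the interval for *Il1b* was -1.69 to 0.26 and that for *Nlrp3* -0.84 to 1.13. Those of *Casp4* (log2 -0.67, SE 0.29, interval -1.29 to -0.05, edgeR adjusted p = 0.289) and *Il18* (0.45, SE 0.20, 0.01 to 0.89, adjusted p = 0.301) lay to one side of 0, and neither passed. At 24h *Casp4* (interval -0.54 to 0.55) and *Nlrp3* (-0.50 to 0.83) had intervals that reach to both sides of 0. *Il18* was the gene furthest toward *Cacnb3*-/- at 24h (log2 0.78, SE 0.27, edgeR adjusted p = 0.0635, 1.71-fold), with values of 11.4, 6.91, 9.15, 9.92 and 4.29 CPM against 5.26, 5.85, 3.69, 3.83 and 5.68 CPM in WT. The genotypes overlapped only through p974s865, and with the lane as a covariate the difference was 0.56 (SE 0.29, edgeR adjusted p = 0.217). *Gsdmd* was lower in *Cacnb3*-/- at 24h (-0.38, SE 0.17, edgeR adjusted p = 0.119), and with the GC trend removed this became -0.07. With that trend removed *Casp4* at 24h differed by -0.67 (edgeR adjusted p = 0.166) and *Casp1* by -0.35 (adjusted p = 0.217) in place of 0.20.

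**Figure D5:**
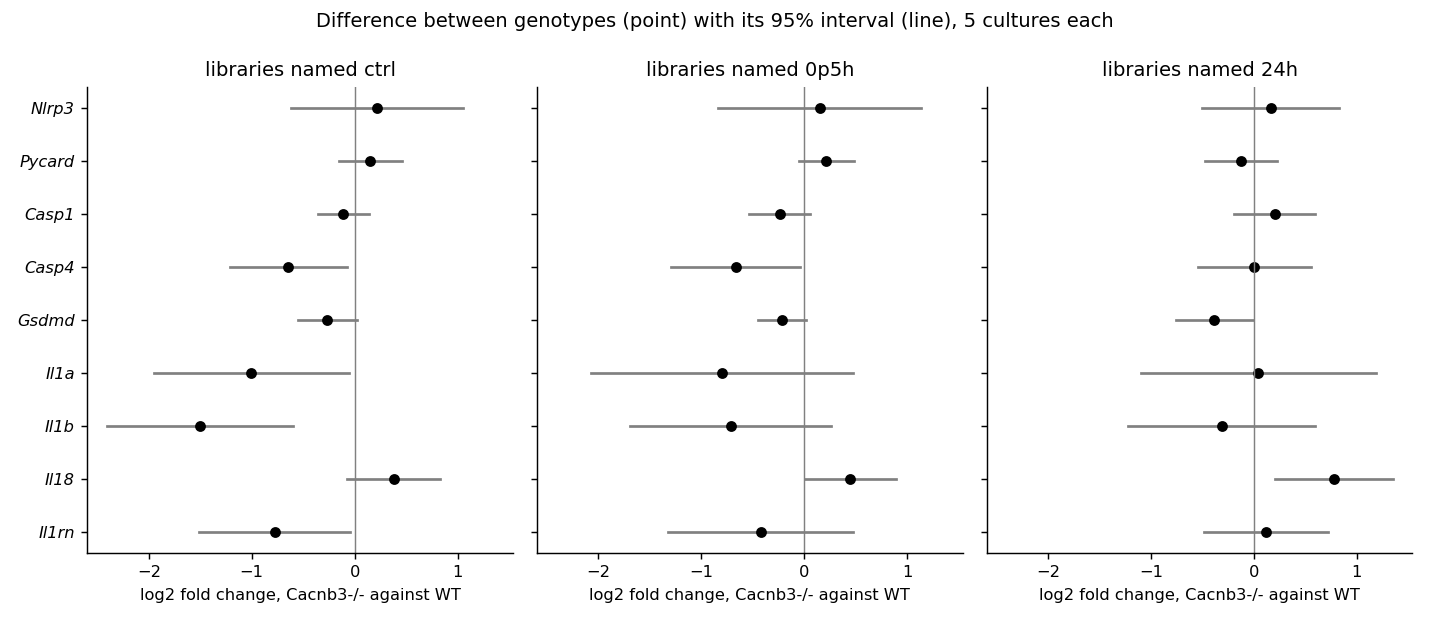
Difference between genotypes for the 9 genes in each set (log2 fold change of *Cacnb3*-/- against WT, point) with its 95% interval (line) from the edgeR quasi-likelihood fit of 5 against 5 cultures. No difference passed the adjusted threshold, and the intervals of *Il1b*, *Il1a*, *Il1rn* and *Casp4* in ctrl, of *Casp4* in 0p5h and of *Gsdmd* in 24h lie below 0.

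Whether the genotypes differed in how the genes changed was tested as an interaction over 20 libraries. Without a replicate block none of the 9 genes, and 0.0% of all genes, passed in edgeR for any step. At an unadjusted p under 0.05 there were 0 of the 9 in each of the 3 steps, against 0.223% (ctrl to 0p5h), 4.86% (ctrl to 24h) and 5.88% (0p5h to 24h) of all genes, and DESeq2 called none of the 9. From ctrl to 24h the interaction was 1.20 for *Il1b* (SE 0.63, 95% interval -0.12 to 2.51, edgeR adjusted p = 0.753) and 0.90 for *Il1rn* (SE 0.46, -0.06 to 1.86, adjusted p = 0.753). Both are toward a more positive change in *Cacnb3*-/-, not a higher level. The mean of *Il1b* was 155 CPM in *Cacnb3*-/- and 447 CPM in WT in ctrl, and 218 and 274 CPM at 24h. From ctrl to 0p5h the interaction was 0.79 for *Il1b* (SE 0.65, -0.58 to 2.15) and -0.07 for *Nlrp3* (SE 0.64, -1.42 to 1.27), with edgeR adjusted p = 1.0 for each. These fits do not use the pairing of libraries within a culture. With the block none of the 9 genes was called from ctrl to 0p5h or from 0p5h to 24h. From ctrl to 24h the pairing was weak in p974s843. There DESeq2 with the block called *Il1b* (1.29, adjusted p = 0.000119), and edgeR with the block called none of the 9.

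The rest of the pathway was described from 58 genes in 7 lists, of which 50 were tested in each comparison of sets or genotypes. Of 14 priming genes from the Toll-like receptors to NF-κB, edgeR called 2 lower in WT from 0p5h to 24h and 1 higher in *Cacnb3*-/- from ctrl to 0p5h. It called 1 higher and 1 lower in *Cacnb3*-/- from 0p5h to 24h. Of all genes 0.639%, 0.29% and 0.66% were called in these comparisons. *Nfkbiz*, a cofactor of NF-κB, rose at 0p5h in *Cacnb3*-/- (1.41, SE 0.18, edgeR adjusted p = 0.00440, 18.2 to 32.5 CPM in ctrl against 49.5 to 74.0 in 0p5h). In WT it differed by 1.11 (SE 0.21, edgeR adjusted p = 0.0715), and it was called with the replicate block (1.14, SE 0.09, adjusted p = 3.96e-05) and by DESeq2 (adjusted p = 0.000263). It fell again by 24h in *Cacnb3*-/- (by 1.44, SE 0.17, edgeR adjusted p = 0.00213) and in WT (by 1.39, SE 0.23, adjusted p = 0.0125). *Tlr2*, a receptor for bacterial lipoproteins, fell in WT from 0p5h to 24h by 1.22 (SE 0.23, edgeR adjusted p = 0.0260). The *Cacnb3*-/- difference was -1.41 (SE 0.60, edgeR adjusted p = 0.265), and with the block *Tlr2* fell there as well (by 1.12, SE 0.20, adjusted p = 0.00246). *Tnf*, a cytokine of the same priming response, went the other way from *Il1b*. It was lower at 0p5h than in ctrl in all 10 cultures, as were 10.6% of all genes over the WT cultures and 7.36% over the *Cacnb3*-/- ones. Its means were 28.5, 8.64 and 30.5 CPM in WT and 15.4, 5.11 and 19.1 CPM in *Cacnb3*-/-. In *Cacnb3*-/- it rose from 0p5h to 24h by 1.92 (SE 0.36, edgeR adjusted p = 0.0296). At 0p5h against ctrl the difference was -1.70 in WT (SE 0.31, edgeR adjusted p = 0.0571) and -1.60 in *Cacnb3*-/- (SE 0.45, adjusted p = 0.457). With the block *Tnf* fell by 1.74 (SE 0.16, edgeR adjusted p = 0.000131) and 1.54 (SE 0.21, adjusted p = 0.00387), and DESeq2 called both. From 0p5h to 24h in WT it differed by 1.82 (SE 0.44, edgeR adjusted p = 0.0858), called with the block (1.75, SE 0.27, adjusted p = 0.00419) and by DESeq2 (adjusted p = 0.00172). Of 6 brakes on the inflammasome 4 were tested, and *Trim30a*, an interferon-induced gene that restrains NLRP3, rose in *Cacnb3*-/- from 0p5h to 24h by 1.21 (SE 0.23, edgeR adjusted p = 0.0300). Against ctrl the difference at 24h was 1.15 (SE 0.22, edgeR adjusted p = 0.162), called by DESeq2 (adjusted p = 0.000715). *Casp4* correlated with *Trim30a* at r = 0.935 over the 30 libraries.

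By edgeR without the block none of the genes called in the 12 comparisons came from the other 5 lists, which were the genes upstream of NLRP3 (7, among them *P2rx7*), other sensors (11), other cell death executors (7), other IL-1 family ligands (6) and the receptors of IL-1 and IL-18 with their decoys (7). Over the 58 genes, those at an unadjusted p under 0.05 (edgeR) between genotypes numbered 10, 5 and 10 in ctrl, 0p5h and 24h. Of all genes 16.6%, 16.4% and 38.4% reached it. Between sets they numbered from 3, as in *Cacnb3*-/- 0p5h against ctrl (509 of all 12750 genes), to 11, as in *Cacnb3*-/- 24h against 0p5h (2222 of all 12730). DESeq2 called up to 3 in a comparison of sets or genotypes, against 0.117% to 2.35% of all genes. *Naip1*, a sensor of bacterial proteins, was lower at 24h than in ctrl in 5 of 5 WT cultures, as were 11.6% of all genes. Its levels were 2.99 to 6.31 CPM in ctrl against 1.60 to 2.38 CPM in 24h. The log2 difference was -1.17 (SE 0.23, edgeR adjusted p = 0.154), and *Naip1* was called with the block (-1.13, SE 0.19, adjusted p = 0.0103) and by DESeq2 (adjusted p = 0.00141). *P2rx7*, the ATP receptor itself, averaged 12.5, 11.5 and 10.6 CPM in WT and 19.7, 16.8 and 14.7 CPM in *Cacnb3*-/-. *Il1r2*, a decoy receptor that takes up IL-1β, averaged 372, 410.4 and 248 CPM in WT and 434, 576 and 399 CPM in *Cacnb3*-/-. Like *Il1b*, it was higher at 0p5h than in ctrl in all 10 cultures, as were 9.67% of all genes over the WT cultures and 9.76% over the *Cacnb3*-/- ones. It was also lower at 24h than at 0p5h in all 10, as were 14.5% and 19.1% of all genes.

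The genes most like each member were named by Pearson's r of log2 CPM over the 30 libraries, which come from 10 cultures and share their depth and set. *Nlrp3* was most like *Lrrc32* (0.950), *Egr2* (0.936) and *Dcstamp* (0.923), and *Il1b* most like *Gpr183* (0.905), *Nr4a3* (0.878) and *Dusp1* (0.876). *Il1rn* was most like *Fzd7* (0.901), *Olr1* (0.900) and *Clec4e* (0.884), and *Il1a* most like *Acod1* (0.864), *Cd38* (0.857) and *Pla2g4a* (0.854). For *Casp4* the nearest were *Nt5c3* (0.938), *Trim30d* (0.937) and *Trim30a* (0.935), for *Casp1* *Ngly1* (0.879), *Gpr85* (0.847) and *Brip1os* (0.837). *Pycard* was nearest to *Cotl1* (0.870), *Acaa2* (0.853) and *Cd68* (0.851), *Gsdmd* to *Elovl1* (0.895), *Tm7sf2* (0.891) and *Skic2* (0.881), and *Il18* to *Rbms1* (0.917), *mt-Ts2* (0.916) and *Npm1* (0.908). Among the 9 genes themselves *Il1rn* ran closest with *Il1a* (r = 0.821) and *Il1b* (0.808) and then with *Nlrp3* (0.692), whereas *Il18* and *Gsdmd* ran opposite (-0.680). None of the 9 genes was among the 3 nearest of another.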

How the data were processed

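RNA of 30 BMDC libraries was measured, and the authors deposited raw read counts per gene, without normalization. Per the file header, reads were assigned to Ensembl 79 exons (GRCm38) by featureCounts 1.5.1, from read 1 alignments, and no option for strand, multiply aligned reads or read pairs. The labels name STAR 2.4, DESeq2 and mm10, while the paper's methods name GRCm39 and a stranded kit. Symbols came from GENCODE M39 (89.4% of identifiers matched). Members and lists were chosen with earlier results of these data known. No column of other samples was found, and no row lacked a gene.

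Counts were tested in R 4.3.3 with edgeR 4.0.16 (TMM, filterByExpr, quasi-likelihood test, Benjamini-Hochberg over all genes tested). Calls needed an adjusted p under 0.05 together with a 2-fold difference. SE is the log2 difference over the root of F. Sets were compared within a genotype, genotypes within a set (10 libraries each), and interactions over 20 libraries. All 9 members were named whatever their values, other pathway genes where called, and the 3 genes most like each member. *Tnf*, *P2rx7*, *Il1r2*, *Fos* and *Cacnb3* levels were also given, as were promoters of 4 genes, chosen after values were seen. CPM used the reads on genes kept by the filter over the 30 libraries, scaled by the TMM factor of each library. The methods were checked on simulated data.

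Alternatives were DESeq2 1.42.0, its size factors in edgeR, no low-count filter, a single fit to all 30 libraries, no fold minimum, GC trend removal (lowess span 0.3), a replicate block for the culture, and leaving out every culture in turn. Added after seeing the data were DESeq2 with the block, the sequencing lane as a covariate and the block with each culture left out. Deviations from the group mean correlated over 0.1 in 29 of the 30 same-numbered pairs (13755 genes, median 0.609, other pairs -0.219), all but p974s843 between ctrl and 24h (0.0746). Hence blocked values stand beside results only where that pair is not compared, except for the interaction from ctrl to 24h. Those of *Cacnb3*-/- 24h against ctrl are given only where the dependence on processing is described. In 8 of 10 cultures the 3 libraries shared a lane. Depth of 8237393 to 32164225 counts limits genes of few reads.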

Additional observations from a re-analysis of the deposited data

Results flagged for a closer look

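In 3 of 54 groups of 5 libraries (9 genes, 6 groups each), 1 library lay far from the other 4 by Dixon's test, and chance flags about 1 in 20 groups. *Pycard* in WT 24h stood at 108 CPM in culture p974s856, above the other 4 libraries. *Casp4* in *Cacnb3*-/- ctrl stood at 18.8 CPM in culture p974s865, below the other 4. *Gsdmd* in WT ctrl stood at 252 CPM in culture p974s850, above the other 4. The causes were not tested.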

How the results depend on the processing

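Of 25 member tests with an unadjusted p under 0.05, 0 changed sign under any alternative run, and of the other 83 tests 28 did. Given next is the number of the 9 genes called, where fits that leave a culture out include those with the replicate block. WT 0p5h against ctrl went from 0 to 1 with the replicate block (culture number) in edgeR, with and without GC trend removal, and in DESeq2, and ranged from 0 to 1 with a culture left out. WT 24h against 0p5h went from 1 to 3 with the replicate block in the same 3 fits, to 3 with DESeq2 and to 2 with all 30 libraries in one fit, and ranged from 1 to 3 with a culture left out. *Cacnb3*-/- 24h against 0p5h went from 1 to 2 with the replicate block in the same 3 fits and to 2 with no fold minimum, and ranged from 0 to 2 with a culture left out. *Cacnb3*-/- 0p5h against ctrl ranged from 0 to 1 with a culture left out, as did 24h against ctrl in each genotype. In *Cacnb3*-/- 24h against ctrl the pair of p974s843 correlated at only 0.0746 and those of the other cultures at 0.428 to 0.703. There the replicate block gave *Nlrp3* -0.92 (edgeR adjusted p = 0.00765), *Casp4* 0.77 (0.00610) and *Casp1* 0.52 (0.0144), none of them 2-fold. Between genotypes in ctrl the number went from 0 to 1 with DESeq2 and ranged from 0 to 1 with a culture left out. The interaction from ctrl to 24h went from 0 to 1 with DESeq2 and the replicate block (*Il1b*, 1.29, adjusted p = 0.000119, against 1.28 and 0.0582 in edgeR with the block, where these fits called 50 and 16 genes in all) and ranged from 0 to 2 with a culture left out, as did that from 0p5h to 24h. Of 18 ratio tests 6 passed, 0 with the sign-flip test over cultures (replicate block) and 0 to 4 with a culture left out. In *Cacnb3*-/- 24h against 0p5h, the call of *Il1b* was also lost with all 30 libraries in one fit (edgeR adjusted p = 0.0568). Over all genes, calls by edgeR, DESeq2 and edgeR with the replicate block numbered 23, 51 and 76 (WT 0p5h against ctrl), 2, 30 and 122 (WT 24h against ctrl), 82, 148 and 228 (WT 24h against 0p5h), and in *Cacnb3*-/- 37, 56 and 82, 0, 48 and 138, and 84, 203 and 367 in the same order. Between genotypes edgeR called 0 and DESeq2 146 (ctrl), 83 (0p5h) and 606 (24h), and at 24h the fit to all 30 libraries called 615 and no low-count filter 376. The causes were not tested. Depth limits *Il18* and *Il1a* most.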

Other observations

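At 24h, 3 other genes of the pathway were called between genotypes by DESeq2 (606 genes in all, 2.35%). In edgeR their adjusted p was 0.0515, which was the smallest of all 12706 genes tested there, of which 4877 reached an unadjusted p under 0.05, and with the GC trend removed the smallest was 0.133. *Gsdme*, which encodes a gasdermin cut by caspase-3, stood at 9.28 to 17.7 CPM in *Cacnb3*-/- and at 3.15 to 9.44 CPM in WT (log2 1.34, SE 0.29, edgeR adjusted p = 0.0515, DESeq2 adjusted p = 0.00245). *Ptpn22*, a phosphatase, stood at 9.92 to 20.9 CPM against 4.63 to 8.74 CPM (1.17, SE 0.24, edgeR adjusted p = 0.0515, DESeq2 adjusted p = 0.00182). *Ninj1*, which encodes the protein that ruptures the membrane of dying cells, stood at 72.0 to 182 CPM against 132 to 323 CPM (-1.0, SE 0.29, edgeR adjusted p = 0.0515, DESeq2 adjusted p = 0.0103). In the ctrl libraries DESeq2 also called *Trim30a* lower in *Cacnb3*-/- (-1.02, SE 0.30, adjusted p = 0.0459), where edgeR gave -1.01 (adjusted p = 0.243). Genotype and substrain cannot be told apart in these values either.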
